A study of Mus musculus with 3 samples.

Results

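The replication-dependent histone genes encode the core histones H2A, H2B, H3 and H4 and the linker histones H1 that package newly made DNA. They were taken as every gene of the deposited matrix whose symbol names a clustered H2A, H2B, H3 or H4 gene (H2ac, H2bc, H3c and H4c followed by a number) or 1 of the linker genes H1f1 to H1f5, and the H2BGFP transgene sequence was left out. The rule found 60 of 31730 genes. They held 77878 of 129785549 UMIs (unique molecular identifiers, each standing for 1 captured molecule), which is 600 counts per 1e6 UMIs (CPM) or 0.0600% of the total.

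Lung mesenchymal cells came from mouse pups of the genotype Fgf18CreERT2/+; ROSATDTomato/+; PdgfrαEGFP/+, given tamoxifen on postnatal days 2 to 5 and taken on day 7. All 3 libraries share this genotype, treatment and age and differ in the sort gate: GFP-high tdT-high, GFP-high tdT-negative and GFP-low tdT-negative. GFP reads the Pdgfra allele. The tdTomato label marks cells in which the CreERT2 driven by Fgf18 had recombined the reporter under tamoxifen, and their descendants. It thus reports Fgf18 expression around the days of tamoxifen, and a labelled cell need not express Fgf18 on day 7. Each gate has 1 library of 1511, 3347 and 1284 deposited cells in that order, the labels do not give the number of pups, and no comparison below has a replicate or a test. All intervals are 95% and cover counting error only, since cells of 1 library are not replicates.

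Histone mRNAs of this class are made in bulk while DNA is copied and are removed when copying ends. Most lack a poly(A) tail and end instead just past a conserved stem-loop, which the stem-loop binding protein Slbp holds during processing and translation. A subset is known to be made also as polyadenylated mRNAs, which use a signal farther downstream. The libraries were made by priming on poly(A), per the labels' protocols, so the UMIs count polyadenylated or internally primed molecules and not the whole histone mRNA pool. Counts of 3′ tags carry no length correction, so a higher count for one gene than another also reflects how each 3′ end is caught.

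The stem-loop was looked for after the stop codon in GENCODE M21 transcripts as the 16 letters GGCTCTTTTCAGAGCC, on the transcript strand. They were taken from the members themselves, as the most frequent 16 letters whose first and last 6 pair with each other, so their frequency among members is a description. The exact letters stood in 22 of the 59 members matched to that annotation, in 28 with up to 1 mismatch and in 38 with up to 3, all of them 21 to 58 bases after the stop (median 31.5). Among 22527 coding genes, a set that includes members, 26 (0.115%) had the exact letters after the stop and 0 had their reverse complement. The sites below lie in 3′ untranslated regions on chromosome 13 of GRCm38 and are shown because the capture results turn on these genes, with the stem-loop in capitals and up to 5 flanking bases.
H1f4: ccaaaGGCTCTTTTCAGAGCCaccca
H1f2: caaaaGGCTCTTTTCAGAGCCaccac
H2ac8: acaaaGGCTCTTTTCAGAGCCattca
H2ac4: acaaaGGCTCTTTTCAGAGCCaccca
H2ac24: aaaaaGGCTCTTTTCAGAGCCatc
H3c2: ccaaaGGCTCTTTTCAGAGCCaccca
H3c3: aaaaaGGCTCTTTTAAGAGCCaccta
H4c4: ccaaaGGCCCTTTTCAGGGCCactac
H4c8: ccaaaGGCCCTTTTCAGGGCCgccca
Counted from 1 at the 5′ end of the 16 letters, H3c3 carried C10A in the loop. H4c4 and H4c8 carried T4C and A13G, a pair of changes at facing positions of the stem. H1f4 and H2bc6 had the same 26 letters. The annotated transcript of H2ac24 ended 3 bases past the stem-loop, that of H2ac8 151 bases past it, and that of H1f4 1153 bases past it.

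The genes lie mostly in 2 groups, with 50 members on chromosome 13 between 21715711 and 23764412 and 9 on chromosome 3 between 96219885 and 96270192 (RefSeq, GRCm38.p6). H2bc24 was not matched, and 56 members had a single exon. Most members shared a peak in 1 cell type name, described below, and the promoters of 2 linker genes are shown, as 300 bases around the annotated start from RefSeq. Capitals mark CCAAT on either strand, TATAAA, and AAACACA, a box known from H1 promoters. H1f5, whose UMIs lay mostly in dividing cells, has its window at chr13:21780576-21780875 on the minus strand, and H1f4, caught in every cell type, at chr13:23622509-23622808 on the minus strand.
H1f5: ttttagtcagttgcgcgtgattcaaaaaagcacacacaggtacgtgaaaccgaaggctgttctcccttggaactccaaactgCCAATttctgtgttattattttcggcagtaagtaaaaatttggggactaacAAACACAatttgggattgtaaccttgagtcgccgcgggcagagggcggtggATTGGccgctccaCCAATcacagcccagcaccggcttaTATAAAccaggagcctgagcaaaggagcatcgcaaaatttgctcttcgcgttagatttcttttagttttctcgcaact
H1f4: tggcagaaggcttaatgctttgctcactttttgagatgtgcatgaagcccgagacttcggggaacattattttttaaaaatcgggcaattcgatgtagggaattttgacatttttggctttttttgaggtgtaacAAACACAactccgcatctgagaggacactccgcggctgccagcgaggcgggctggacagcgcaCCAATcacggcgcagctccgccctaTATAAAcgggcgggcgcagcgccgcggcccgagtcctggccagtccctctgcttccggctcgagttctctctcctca
Searched on both strands, CCAAT stood in 84.9% of 53 member windows, against 37.9% of 27025 windows of all genes, and in 3 of 11 H4 windows. TATAAA stood in 60.4% of member windows and 14.2% of all windows. The octamer ATTTGCAT stood in 18.9% of member windows, in 5 of 16 H2A and 5 of 12 H2B windows, and in 1.75% of all windows. AAACACA stood in 11.3% of member windows and 7.14% of all windows, in 4 of 5 H1 windows and not in that of H1f1.

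The deposited cell type names include 3 dividing fibroblast names, DivFB-S (39 cells), DivFB-S/G2M (90 cells) and DivFB-G2M (118 cells), beside 5895 cells of 7 other names. The 3 names held 42, 190 and 15 cells of the GFP-high tdT-high, GFP-high tdT-negative and GFP-low tdT-negative libraries. The sources used here do not say how the names were called. They rest on the same matrix, so levels by name are descriptions. No doublet caller was run, and 4 barcodes occur in 2 libraries. Of 10 myofibroblast markers all 10 reached 10 CPM in DivFB cells (sum 10840 CPM, against 12674 CPM in other cells), while the epithelial list summed to 2.77 and 10.5 CPM and the mesothelial list to 0.489 and 0.930 CPM. The immune list summed to 19.1 CPM in DivFB cells and 12.3 CPM in other cells, the endothelial list to 19.2 and 33.0 CPM, and the erythroid list to 10.1 and 13.9 CPM. The adventitial fibroblast list summed to 75 and 1121 CPM and the pericyte list to 112 and 223 CPM. The alveolar fibroblast list summed to 378 CPM in DivFB-S/G2M, 132 CPM in DivFB-S, 992 CPM in DivFB-G2M and 3387 CPM in other cells. It was 98.6 CPM in DivFB-S/G2M and 184 CPM in DivFB-G2M within GFP-high tdT-high, 125 and 151 CPM within GFP-high tdT-negative, and 7749 and 7667 CPM within GFP-low tdT-negative. The part of these lists in the histone values was not tested.

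Of the 60 members, 45 had at least 100 UMIs over all cells, 14 had 3 to 95 and H2ac14 had none. The 5 linker genes held 36.7% of member UMIs, the 12 H4 genes 27.8%, the 17 H2A genes 14.3%, the 15 H2B genes 14.3% and the 11 H3 genes 6.82%. A floor of 3 counts applies to any value of 0, and the same 100 UMIs left 17641 genes of the whole matrix as background. A gene was called at 2-fold in CPM after adding 1 CPM. This filter used all cells, so members that passed it only through dividing cells had to be higher there.

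Histone genes peaked in DivFB-S/G2M. Summed over members, that name had 8932 CPM (8820 to 9046), against 721 CPM (669 to 776) in DivFB-S, 792 CPM (757 to 828) in DivFB-G2M and 414 CPM (410 to 417) in the other types together. In the GFP-high tdT-high, GFP-high tdT-negative and GFP-low tdT-negative libraries the sum in DivFB-S/G2M was 16683, 7097 and 8045 CPM, from 16, 71 and 3 cells. In DivFB-G2M it was 971, 714 and 1079 CPM, and in DivFB-S it was 693 and 733 CPM in the 2 GFP-high libraries, the GFP-low library having no such cell. The DivFB-S/G2M value was the highest of the 3 names in every library, with no overlap of intervals. DivFB-S/G2M exceeded DivFB-G2M 11.3-fold (10.8 to 11.8), 17.2-fold within the tdT-high library and 9.94-fold within the GFP-high tdT-negative library. It exceeded DivFB-S 12.4-fold (11.5 to 13.4), 24.1-fold and 9.68-fold within the same libraries, and 22.2-fold when the GFP-high tdT-negative library was left out.

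**Figure D1:**
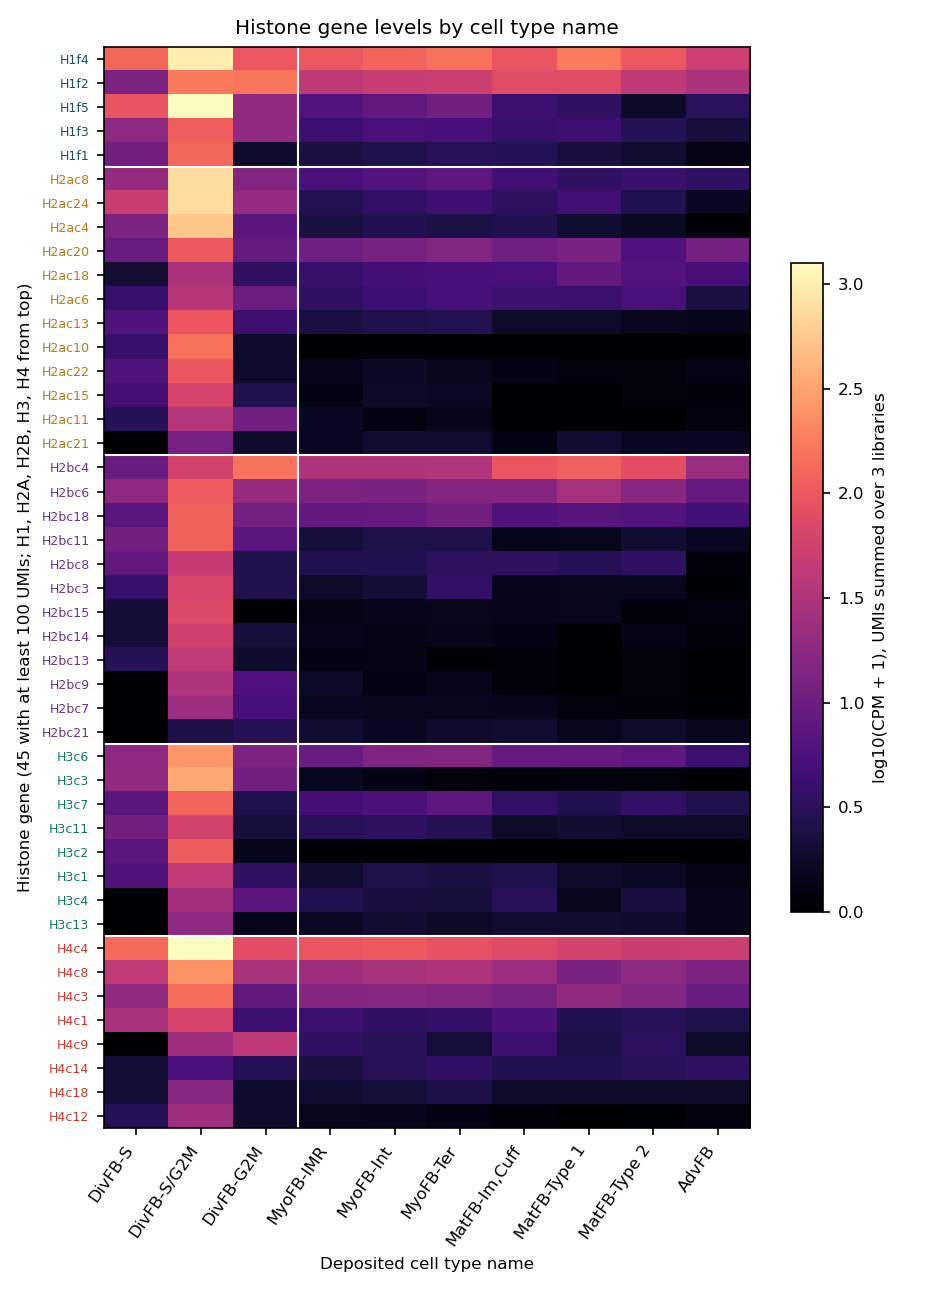
Level of the 45 members with at least 100 UMIs (rows, by family) in each deposited cell type name (columns), as log10 of CPM plus 1, with UMIs summed over the 3 libraries. The DivFB-S/G2M column is the brightest for 42 of the 45 rows, and H1f4, H1f2, H2bc4 and H4c4 are above 20 CPM in every non-dividing type as well.

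DivFB-S/G2M was the top name for 42 of the 45 members, and for 12 of the 14 with fewer UMIs, H2ac19 and H3c15 being the exceptions with 3 and 47 UMIs. Over DivFB-G2M, 40 of 45 were at least 2-fold higher, where 7.32% of all genes were, and 1 was at least 2-fold lower, where 5.84% were. The members' median log2 ratio was 3.87, against -0.09 over all genes. Over DivFB-S all 45 were called at least 2-fold higher (9.85% of all genes) and 0 lower (7.90%), with a median log2 ratio of 3.72 against -0.01. The call of H2bc21 rested on 4 against 0 UMIs, and with the floor of 3 counts in DivFB-S its ratio was 0.490. H4c14 had 12 against 1 UMIs, a ratio of 4.41 (0.653 to 189). The counting intervals of both ratios included 1. No p-value stands behind these counts. H2ac10 had 399 of its 408 UMIs in DivFB-S/G2M and H3c2 290 of 304, so both passed the minimum only through that name. The counts and medians include such members, whose calls the filter fixed or favoured.

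Linker histones bind the DNA that enters and leaves the nucleosome. H1f5 had 2027, 1074 and 1018 CPM in DivFB-S/G2M cells of the GFP-high tdT-high, GFP-high tdT-negative and GFP-low tdT-negative libraries, and pooled it had 1252 CPM there, 18.4 in DivFB-G2M, 92.8 in DivFB-S and 5.37 in other types. Of the 5 linker genes it had the most UMIs in DivFB-S/G2M. H1f4 had 1615, 749 and 2298 CPM in the same cells, and pooled 964 CPM in DivFB-S/G2M, 96.4 in DivFB-G2M, 127 in DivFB-S and 110 in other types. By library H1f4 had 104.8, 99.8 and 62.4 CPM in DivFB-G2M and 131, 99.1 and 111.5 CPM in other types, so the 2 were level in the GFP-high tdT-negative library. H1f3 had 110 CPM and H1f1 130 CPM in DivFB-S/G2M, against 18 and 0.817 CPM in DivFB-G2M. H1f2 did not have this gap: it had 266, 137 and 427 CPM by library in DivFB-S/G2M, and 218, 140 and 205 CPM in DivFB-G2M. The pooled H1f2 ratio was 1.08 (0.94 to 1.24), and its DivFB-S level was 12.1 CPM, below the 45.5 CPM of other types.

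H2A and H2B form the 2 dimers of the nucleosome, and their genes often sit in pairs. The H2A genes summed to 2709 CPM in DivFB-S/G2M, 34.9-fold (30.2 to 40.5) over DivFB-G2M. H2ac8 had 1565, 607 and 164 CPM in DivFB-S/G2M by library and pooled 772 CPM, against 13.5 CPM in DivFB-G2M. H2ac24 had 1410, 594 and 668 CPM and pooled 750 CPM, against 18.8 CPM. H2ac4 had 541 CPM, against 6.13 CPM in DivFB-G2M. These 3 genes held most of the H2A UMIs in DivFB-S/G2M, and each library showed them above DivFB-G2M. H2ac10 (148 CPM), H2ac20 (102 CPM), H2ac13 (94.9 CPM), H2ac22 (94.2 CPM) and H2ac15 (61.2 CPM) followed in DivFB-S/G2M. H2ac6, H2ac11, H2ac18 and H2ac21 had 36.3, 33.0, 29.7 and 10.8 CPM there. All 12 H2A genes over the minimum were at least 2-fold above DivFB-G2M, where 7.32% of all genes were. Among them H2ac10, H2ac15, H2ac11, H2ac22 and H2ac21 passed the minimum only through DivFB-S/G2M, so the filter fixed or favoured their call.

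The H2B sum stood out less, at 793 CPM in DivFB-S/G2M and 3.65-fold (3.32 to 4.03) over DivFB-G2M. H2bc4 had 71.0, 53.4 and 120 CPM in DivFB-S/G2M and 150, 134 and 327 CPM in DivFB-G2M by library. It was lower in DivFB-S/G2M in all 3 libraries, 2.68-fold lower pooled. Among non-dividing names H2bc4 was at 95.1, 115 and 82.9 CPM in MatFB-Im,Cuff, MatFB-Type 1 and MatFB-Type 2 and at 30.2 to 31.6 CPM in the MyoFB names. The alveolar fibroblast list, given above by library, was also lower pooled in DivFB-S/G2M than in DivFB-G2M, and within GFP-low tdT-negative, where H2bc4 had 120 and 327 CPM, it was not. Its part in the H2bc4 difference was not tested. An H2bc4 UMI was seen in 62.2% of DivFB-S/G2M cells, 83.9% of DivFB-G2M cells, 12.8% of DivFB-S cells and 36.4% of other cells, and at 5000 UMIs per cell in 17.8%, 50.0%, 2.56% and 15.0% of them. H2bc18 (119 CPM), H2bc11 (119 CPM), H2bc6 (106 CPM), H2bc15 (71.9 CPM), H2bc3 (63.4 CPM) and H2bc14 (54.5 CPM) led the H2B genes in DivFB-S/G2M. H2bc8, H2bc13, H2bc9 and H2bc7 had 45.6, 41.2, 31.2 and 21.9 CPM there, and H2bc21 had 1.48 CPM from 4 UMIs, against 2.04 CPM in DivFB-G2M. H2bc4 and H2bc21 were the 2 H2B genes that peaked in DivFB-G2M.

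H3 and H4 form the tetramer at the core of the nucleosome. The H3 genes summed to 1003 CPM in DivFB-S/G2M, 25.3-fold (20.7 to 31.3) over DivFB-G2M. H3c3 had 670, 270 and 164 CPM by library in DivFB-S/G2M and pooled 342 CPM, against 10.2 CPM in DivFB-G2M. It was higher in DivFB-S/G2M in each library. H3c6, H3c7, H3c2, H3c11, H3c1, H3c4 and H3c13 had 268, 121, 108, 60.8, 42.3, 25.6 and 16.7 CPM in DivFB-S/G2M in that order. The H4 genes summed to 1800 CPM, 10.9-fold (9.83 to 12.1) over DivFB-G2M. H4c4 had 2165, 1077 and 285 CPM by library in DivFB-S/G2M and pooled 1255 CPM, the highest count of any member, against 79.2 CPM in DivFB-G2M. H4c8, H4c3, H4c1, H4c12, H4c18 and H4c14 had 249, 139, 61.6, 22.6, 14.8 and 4.45 CPM. H4c9 had 43.4, 17.6 and 43.8 CPM in DivFB-S/G2M (22, 37 and 4 UMIs) and 39.6, 40.0 and 36.7 CPM in DivFB-G2M (14, 73 and 10 UMIs). Pooled it was lower in DivFB-S/G2M, with a ratio of 0.590 (0.423 to 0.818). The order differed between libraries, but the tdT-high and GFP-low values rested on few UMIs.

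DivFB-S had a low histone level beside its high level of S-phase genes. Summed members in DivFB-S over DivFB-G2M gave 0.910 (0.834 to 0.992), and 0.713 (0.598 to 0.849) within the tdT-high library. Within the GFP-high tdT-negative library the ratio was 1.03 (0.925 to 1.14), an interval that included 1, so no difference was seen there. Of the 45 members, 12 were at least 2-fold higher in DivFB-S, where 9.38% of all genes were, and 9 at least 2-fold lower, where 10.6% were. With cells thinned to 5000 UMIs the lower count was 17, where 24.6% of all genes were lower, and without the GFP-high tdT-negative library it was 20, where 22.6% were. H1f5 was higher in DivFB-S (92.8 against 18.4 CPM, 5.05-fold, 3.50 to 7.38), as was H4c1 (28.2 against 3.27 CPM). H2bc4 had 8.07 CPM in DivFB-S and 158 CPM in DivFB-G2M, and H4c9 had 0 and 97 UMIs in the same names. In the S-phase gene list 41 of 43 genes were at least 1.5-fold higher in DivFB-S than in DivFB-G2M and 0 lower, where 17.7% and 21.6% of all genes were, and Pcna, the replication clamp, had 271 and 38.4 CPM. The list had 41 of 43 genes higher in DivFB-S/G2M than in DivFB-G2M as well and 0 lower, where 14.7% and 17.4% of all genes were.

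The G2 and M phase list was also high in DivFB-S/G2M. Of its 54 genes 40 were at least 1.5-fold higher there than in DivFB-G2M (14.7% of all genes), and 23 within the tdT-high library (26.4% of all genes). Top2a, which untangles replicated DNA, had 1276 CPM in DivFB-S/G2M and 154 CPM in DivFB-G2M. Not every gene of the list went this way: Cenpa had 447 and 651 CPM in the same names. Mki67, a marker of cycling cells, had 838 CPM in DivFB-S/G2M, 509 in DivFB-G2M and 113 in DivFB-S. The helicase subunit gene Mcm5 had 50.4, 6.53 and 86.7 CPM in the same order. DivFB-S/G2M thus had high counts on both lists.

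DivFB-S/G2M was not uniform for histone genes. Its cells had a median of 8814 CPM of summed members (quartiles 1326 and 13182, highest 30890), and 57 of 90 were over 5000 CPM with 4 between 4000 and 6000. In DivFB-S the highest cell had 4500 CPM and in DivFB-G2M 2063 CPM. The highest DivFB-S and DivFB-G2M cells thus stayed below the DivFB-S/G2M median. The share of S-phase UMIs among S-phase plus G2 and M phase UMIs ordered the DivFB-S/G2M cells: the 30 cells with the lowest share had a median of 1013 CPM with 8 over 5000, the middle 30 had 10821 CPM with 23 over 5000, and the upper 30 had 12911 CPM with 26 over 5000. Spearman's rho over the 90 cells was 0.69 with the S-phase list, -0.39 with the G2 and M phase list and 0.58 with the share. Over the 39 DivFB-S cells it was 0.56 with the S-phase list, 0.64 with the G2 and M phase list and -0.31 with the share. In the 118 DivFB-G2M cells it was -0.33, -0.23 and 0.05 in the same order, and over all 247 DivFB cells 0.33, 0.22 and 0.13. The relation to the S-phase list and to the share thus differed between names. These cells share libraries, and the quantities compared share each cell's UMI total.

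**Figure D2:**
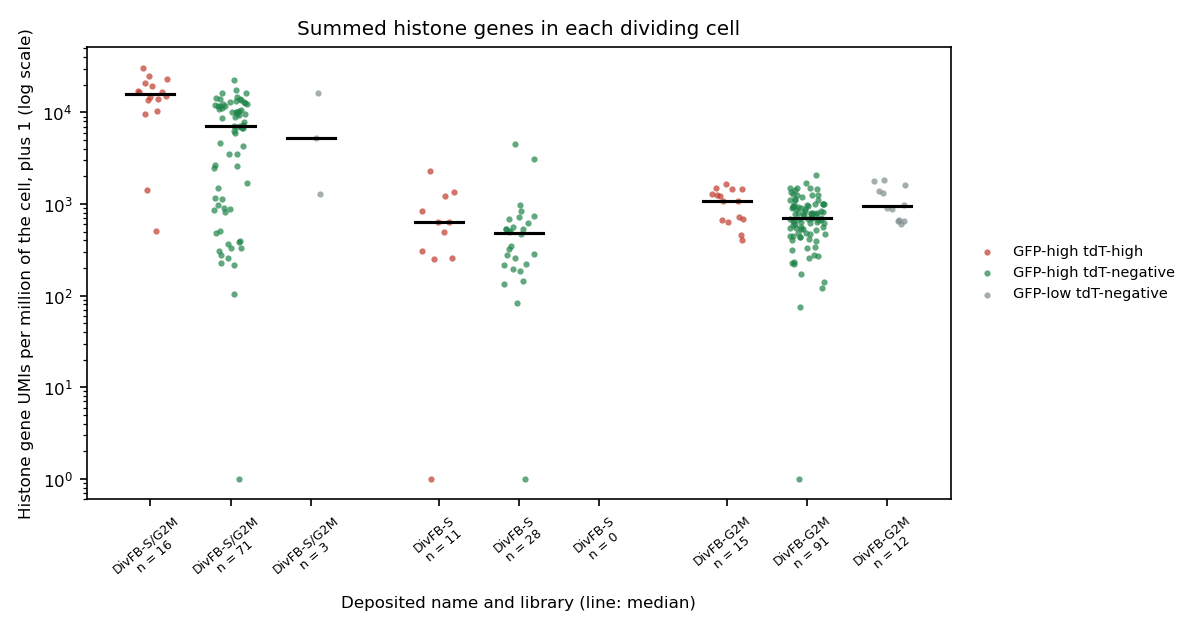
Summed members in each of 247 dividing cells, as CPM of the cell plus 1 on a log axis, by deposited name and library, with the median as a line. DivFB-S/G2M cells spread over more than a decade and hold 57 cells above 5000 CPM, while the highest DivFB-S cell is at 4500 CPM and the highest DivFB-G2M cell at 2063 CPM.

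**Figure D3:**
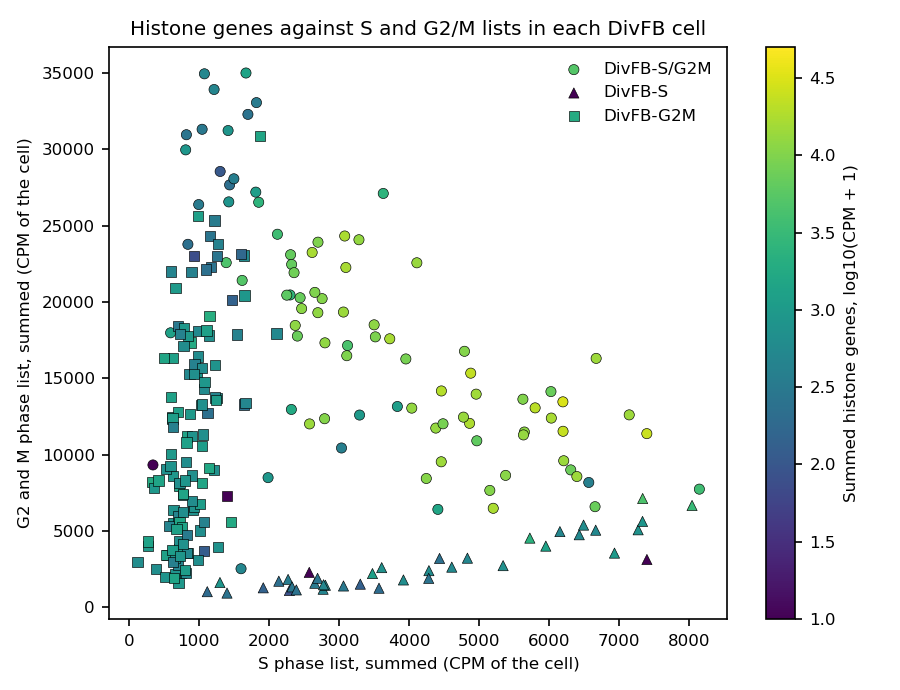
Each point is 1 of 247 dividing cells, placed by its summed S-phase list (x) and G2 and M phase list (y), both in CPM of the cell, and coloured by log10 of summed members plus 1. The brightest circles (DivFB-S/G2M) lie to the right, at a higher S-phase sum, and circles at the upper left are dark.

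The number of different histone genes seen in a cell followed the same order. At 5000 UMIs per cell the median DivFB-S/G2M cell showed 18 members, against 3 in DivFB-G2M, 2 in DivFB-S and 1 in other types. At least 1 member UMI was seen in 94.4% of DivFB-S/G2M cells, 94.9% of DivFB-G2M cells, 74.4% of DivFB-S cells and 78.9% of other cells at that depth, and in 98.9%, 99.2%, 94.9% and 96.3% of them without thinning. Detection of any histone gene thus did not single out DivFB-S/G2M. Some single members differed widely between that name and other types, while H2bc4, given above, was seen in more DivFB-G2M cells. The shares below are not set against DivFB-S or DivFB-G2M. H3c2 and H2ac10 passed the minimum only through DivFB-S/G2M, so their low detection elsewhere was set by the filter. H3c2 was seen in 32.2% of thinned DivFB-S/G2M cells (22.8 to 42.9) and in 1 of 5895 other cells. H2ac10 was seen in 38.9% (28.8 to 49.7) and also in 1 of 5895 other cells. H1f5 was seen in 72.2% (61.8 to 81.1), against 2.32% (1.95 to 2.74) of other cells. Median depth before thinning was 31694 UMIs in DivFB-S/G2M and 20262 UMIs in other types.

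Dividing cells as a whole carried 34.3% of member UMIs in 247 of 6142 cells. Summed members had 7740, 3623 and 2827 CPM in DivFB cells of the GFP-high tdT-high, GFP-high tdT-negative and GFP-low tdT-negative libraries, and 484, 370 and 431 CPM in their other cells. DivFB cells were higher in each library, 10.5-fold pooled (10.4 to 10.7) and 16-, 9.80- and 6.56-fold within libraries. Of the 45 members 43 were at least 2-fold higher in DivFB cells, where 4.51% of all genes were, and 0 lower, where 6.47% were. H4c14 and H2bc21 were the exceptions, with log2 ratios of 0.43 and 0.51. The 43 include H2ac10, H3c2, H2bc13, H2ac11, H3c3, H2bc14, H4c12, H2bc9, H2bc15, H2bc7, H2ac15 and H2ac22, with 4 to 60 UMIs in other types. These passed the minimum of 100 UMIs only through DivFB cells, so their call was fixed by the filter. H2ac21 and H3c13, with 90 and 98 UMIs in other types, also passed only through DivFB cells, and the filter favoured their call. By family the excess was 43.0-fold for H2A, 23.5-fold for H3, 7.90-fold for H1, 6.85-fold for H4 and 6.51-fold for H2B.

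Members differed in how far their UMIs were limited to dividing cells. H2ac10 had 99.0% of its UMIs in DivFB cells, H3c2 97.7%, H3c3 96.1% and H2ac4 90.2%. At the other end H4c14 had 7.06%, H2bc21 9.0%, H2bc4 9.70%, H1f2 13.3% and H2ac18 14.9%. Of the 45 members, 8 were above 80% and 9 below 20%. The minimum of 100 UMIs counts all cells, so a member caught little elsewhere could pass it only with a high share. The H1 genes made up 29.4% of member UMIs in DivFB-S/G2M and 40.2% in other types, H2A 30.3% and 6.97%, H2B 8.87% and 16.5%, H3 11.2% and 4.79%, and H4 20.2% and 31.6%. The 5 members with the most UMIs held 55.9% of member UMIs in DivFB-S/G2M and 73.9% in other types.

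The annotated 3′ end went with this split. Among the 45 members, 30 had a stem-loop with up to 3 mismatches, 16 of them with at least 100 annotated bases past it and 14 with fewer. The bound of 3 was chosen after seeing the data. H4c14, H4c9 and H4c1 had 3 mismatches and H4c4, H4c8, H4c3 and H4c18 had 2, and the values below include them. A further 11 transcripts ended within 30 bases of the stop, and 4 (H2bc4, H1f1, H3c13 and H2bc21) were longer without a stem-loop. The median share of UMIs in DivFB cells was 36.1% (7.06 to 79.2) for the long group, 66.0% (14.9 to 97.7) for the short group and 76.9% (25.6 to 99.0) for those ending at the stop. The groups overlapped widely. Median level in other types was 3.67, 1.04 and 0.485 CPM in the same order, while median level in DivFB-S/G2M was 108, 82.5 and 71.9 CPM. Over the 30 genes with a stem-loop, Spearman's rho of annotated bases past it was -0.53 with the share in DivFB cells, 0.47 with the level in other types and 0.02 with the level in DivFB-S/G2M. Genes are not independent replicates, and no p is given.

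**Figure D4:**
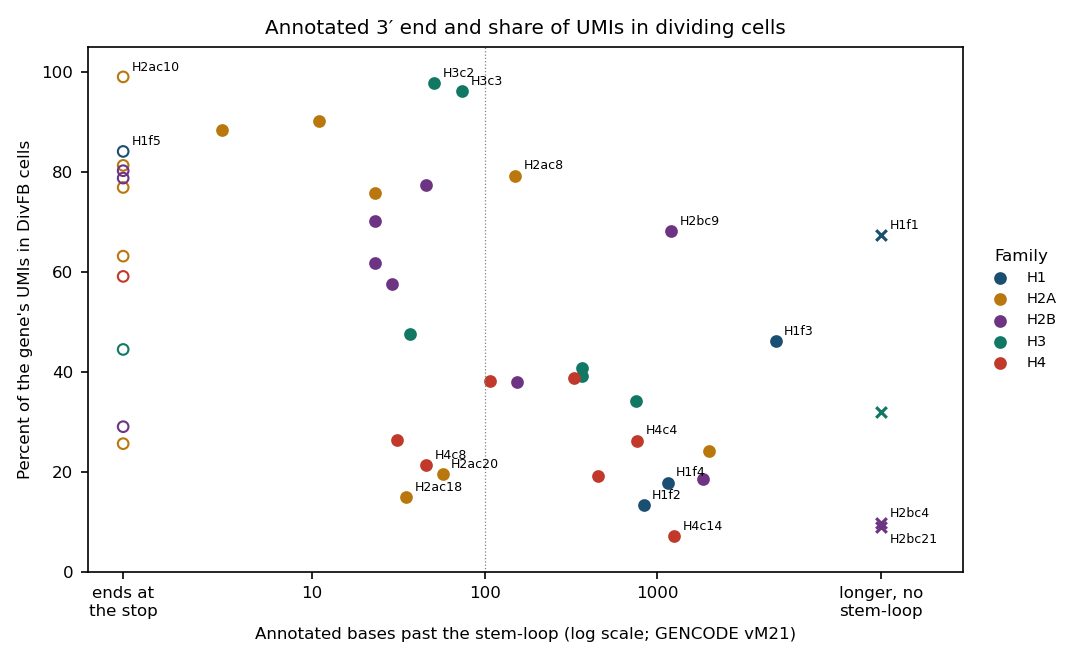
Annotated bases past the stem-loop (x, log scale; GENCODE M21) against the percent of a gene's UMIs found in DivFB cells (y) for the 45 members, coloured by family. Open circles end at the stop codon, crosses are longer without a stem-loop, and no member with 100 or more bases past the stem-loop lies above 80%. H2ac8 of that group lies at 79.2%. Members with few UMIs in other types passed the minimum only through DivFB cells. A stem-loop here is the 16 letters with up to 3 mismatches.

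All 8 members above 80% ended at the stop (4) or had under 100 bases past the stem-loop (4), and 0 were in the long group. Of these 8, H2ac10, H3c2, H3c3, H2ac22 and H2bc15 had 4, 7, 39, 60 and 48 UMIs in other types. They passed the minimum of 100 UMIs only through DivFB cells, so the filter itself favoured a high share. The 9 members below 20% were 5 of the long group, H2ac20 and H2ac18 of the short group, and H2bc4 and H2bc21. The long group held 72.9% of member UMIs in other types and 46.3% in DivFB-S/G2M. The sites printed above show both ends: H1f4 and H4c4, with 1153 and 770 annotated bases past the stem-loop, had 17.8% and 26.2% of their UMIs in DivFB cells, while H3c2 and H2ac4, with 51 and 11 bases, had 97.7% and 90.2%. H2ac8, with 151 bases, had 79.2%, and H4c8, with 46 bases, had 21.3%. H1f5, annotated to end at its stop, had 84.1%. Which annotation the authors counted against is not stated in the sources used here, and reads past an annotated end would not have been counted for that gene.

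Some of these genes share sequence. Over 50% of the 90-base windows of the annotated transcript occurred in another gene's transcript for 25 of 59 members, 16 of them among the 45. The last 300 bases of H1f4 in GENCODE M21 lie on the same strand within the annotated transcript of H2bc6, so H1f4 and H2bc6 UMIs cannot be told apart there. H3c6 and H3c7 likewise shared all of their last 300 bases with other annotated transcripts, as did H2ac24 and H2ac18. H1f5, H1f1, H4c14 and H2bc21 had no shared window.

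In non-dividing names the histone level was low but differed by type and by library. Pooled over libraries, summed members ranged from 223 CPM in AdvFB to 554 CPM in MatFB-Type 1. In GFP-high tdT-negative cells the order was MatFB-Type 1 (503 CPM, 16 cells), MyoFB-Ter (499), MyoFB-Int (408), MyoFB-IMR (362), MatFB-Type 2 (354), MatFB-Im,Cuff (258) and AdvFB (203). In GFP-low tdT-negative cells it was MyoFB-IMR (749 CPM, 21 cells), MyoFB-Ter (600, 23 cells), MatFB-Type 1 (558), MatFB-Im,Cuff (558), MyoFB-Int (544, 22 cells), MatFB-Type 2 (377) and AdvFB (269). AdvFB was lowest in both. MyoFB-IMR was above MatFB-Im,Cuff in both libraries, and these names stood further up the order in GFP-low cells. In GFP-high tdT-negative the intervals of MatFB-Type 1 (420 to 597 CPM) and MyoFB-Ter (481 to 519 CPM) overlapped, as did those of MyoFB-IMR (354 to 371 CPM) and MatFB-Type 2 (316 to 396 CPM). In GFP-low tdT-negative the intervals of MyoFB-Ter, MatFB-Type 1, MatFB-Im,Cuff and MyoFB-Int overlapped. Pooled, H1f4 had 176 CPM and H2bc4 115 CPM in MatFB-Type 1. Of the 5895 cells 1 exceeded 5000 CPM, a MyoFB-Int cell of the tdT-high library with 17666 CPM, and the next had 3207 CPM. MyoFB-Int had 451 CPM without that cell.

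GFP-high tdT-negative cells were set against GFP-low tdT-negative cells, which differ in Pdgfra reporter level. Over all cells summed members had 588 CPM (582 to 594) in the GFP-high library and 464 CPM (456 to 472) in the GFP-low library, 1.27-fold (1.24 to 1.29). DivFB cells were 5.68% and 1.17% of the cells. Without DivFB cells the direction turned: 370 CPM in GFP-high and 431 CPM in GFP-low, a ratio of 0.858 (0.839 to 0.877). Of the 45 members 10 were at least 2-fold higher over all cells, where 8.44% of all genes were, and 1 lower, where 6.50% were. Without DivFB cells 1 was higher (7.85% of all genes) and 1 lower (6.38%).

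The member that was lower was H2bc4 in both settings. It had 33.1 CPM in the GFP-high library and 88.0 CPM in the GFP-low library over all cells, and 29.8 and 85.4 CPM without DivFB cells (ratio 0.349, 0.328 to 0.371). The member that stayed higher without DivFB cells was H1f5, with 5.82 CPM in GFP-high and 1.98 CPM in GFP-low cells (2.94-fold, 2.19 to 4.00). H4c4 had 84.1 and 60.9 CPM in the same cells and H1f4 99.1 and 111.5 CPM. The libraries hold different types, so types present in both were compared. Within MatFB-Im,Cuff summed members had 258 CPM in 110 GFP-high cells and 558 CPM in 205 GFP-low cells, a ratio of 0.463 (0.421 to 0.509). Within AdvFB they had 203 and 269 CPM, a ratio of 0.755 (0.698 to 0.818). Within MatFB-Type 1 they had 503 CPM in 16 GFP-high cells and 558 CPM in 199 GFP-low cells, and within MatFB-Type 2 354 CPM in 44 and 377 CPM in 651 cells, with overlapping intervals in both. In the MyoFB names GFP-low had 21 to 23 cells each, and the sums were 362 and 749 CPM in MyoFB-IMR, 408 and 544 CPM in MyoFB-Int and 499 and 600 CPM in MyoFB-Ter. All 7 non-dividing names thus had fewer histone CPM in GFP-high cells, with overlapping intervals in 2. H2bc4 had 31.9 and 126 CPM within MatFB-Im,Cuff, and 82.1 and 83.3 CPM within MatFB-Type 2. Over all DivFB cells the ratio was 1.28 (1.20 to 1.37) from 190 and 15 cells. Within each dividing name found in both libraries GFP-high cells were lower. DivFB-S/G2M had 7097 CPM in 71 GFP-high cells and 8045 CPM in 3 GFP-low cells. DivFB-G2M had 714 CPM in 91 and 1079 CPM in 12 cells. DivFB-S/G2M, the highest name, thus made up a larger part of the GFP-high dividing cells. The S-phase list had 35 of 43 genes at least 1.5-fold higher in GFP-high DivFB cells, where 33.2% of all genes were. The part of the name mix and of the S-phase list in the histone ratio was not tested.

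GFP-high tdT-high cells were set against GFP-high tdT-negative cells, the same GFP-high tdT-negative library as above, which differ in Fgf18 lineage label. Over all cells summed members had 729 CPM (720 to 738) in tdT-high cells and 588 CPM in tdT-negative cells, 1.24-fold (1.22 to 1.26), although DivFB cells were 2.78% and 5.68% of the cells. Of the 45 members 0 were at least 2-fold higher (0.845% of all genes) and 0 lower (2.50%), and 8 were at least 1.5-fold higher (4.02% of all genes). Within DivFB cells the difference was larger: 7740 CPM in 42 tdT-high cells and 3623 CPM in 190 tdT-negative cells, 2.14-fold (2.08 to 2.19), with 30 of 45 members at least 2-fold higher, where 4.47% of all genes were.

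Within DivFB-S/G2M alone the sums were 16683 CPM in 16 tdT-high cells and 7097 CPM in 71 tdT-negative cells, 2.35-fold (2.29 to 2.41), with 37 of 45 members at least 2-fold higher (10.2% of all genes). H2ac8 had 1565 and 607 CPM in these cells, and H4c4 2165 and 1077 CPM. The median share of S-phase UMIs was 28.5% in tdT-high cells and 15.2% in tdT-negative cells of this name, and 15 of 43 S-phase genes were at least 1.5-fold higher in tdT-high (18.1% of all genes) while 16 of 54 G2 and M phase genes were at least 1.5-fold lower (22.2%). Its part in the difference was not tested. Among the 30 cells with the lowest share the medians were 5533 CPM in 2 tdT-high cells and 829 CPM in 26 tdT-negative cells. Among the middle 30 they were 16675 CPM in 5 and 9911 CPM in 24 cells, and among the upper 30 they were 16773 CPM in 9 and 10873 CPM in 21 cells.

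Outside DivFB the tdT-high library was 1.31-fold (1.28 to 1.34) higher, with 484 CPM in tdT-high and 370 CPM in tdT-negative cells. These libraries also hold different types. AdvFB (203 CPM) and MatFB-Im,Cuff (258 CPM), the lowest names in tdT-negative, had 328 and 110 cells there and 4 and 1 in tdT-high. Within MyoFB-IMR the ratio was 1.21 and within MyoFB-Int 1.28. The part of the type mix in the 1.31-fold gap and in the folds by gene was not tested. The gap differed by gene. H4c8 had 36.6 and 18.5 CPM (1.97-fold, 1.82 to 2.14), H3c7 6.57 and 3.12 CPM (2.10-fold, 1.73 to 2.56) and H1f4 131 and 99.1 CPM (1.33-fold, 1.28 to 1.38). H1f2 had 44.0 and 42.4 CPM and H2bc4 30.2 and 29.8 CPM, and the counting intervals of both ratios included 1. Within MyoFB-Ter the order turned, with 452 CPM of summed members in tdT-high and 499 CPM in tdT-negative cells (0.905, 0.851 to 0.961).

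**Figure D5:**
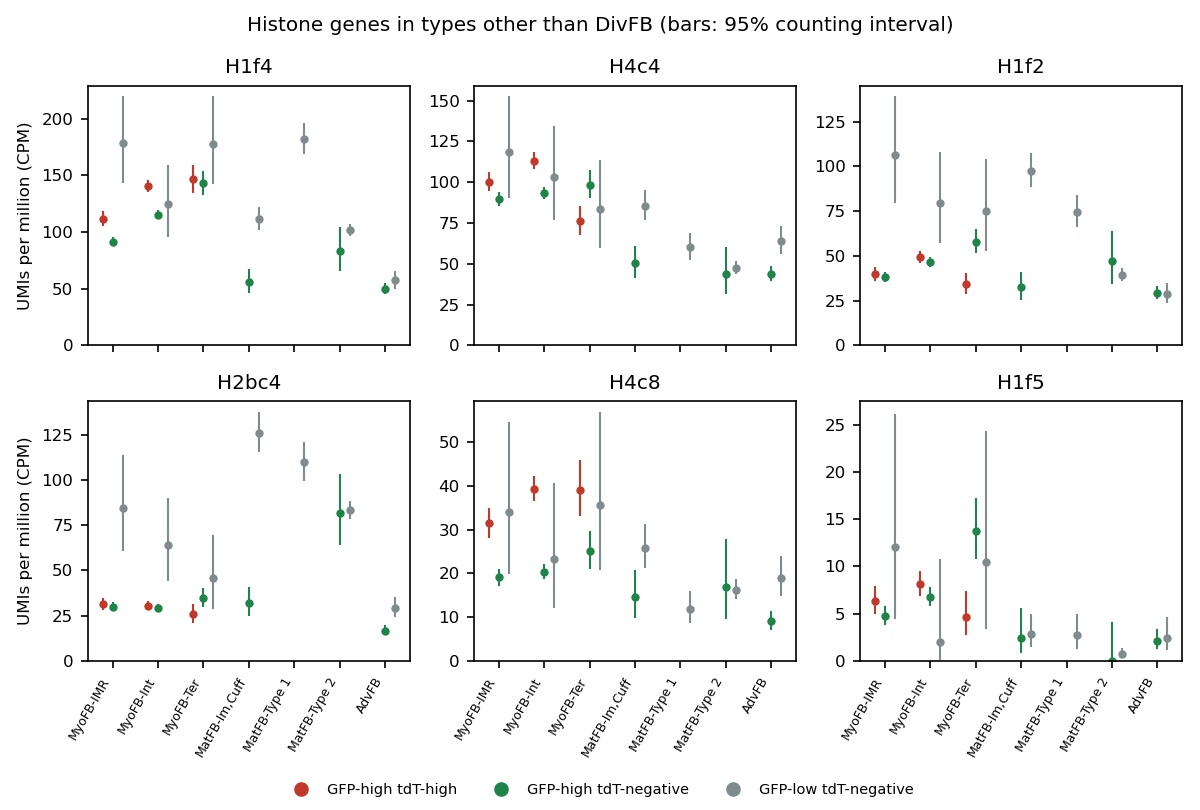
Level of 6 members in CPM (y, separate scales) in each non-dividing type (x), for the tdT-high, GFP-high tdT-negative and GFP-low libraries; bars are 95% counting intervals, and a library with under 20 cells of a type is not drawn. H4c8 lies higher in tdT-high than in GFP-high tdT-negative cells in all 3 MyoFB names, and H2bc4 lies higher in GFP-low than in GFP-high cells of MatFB-Im,Cuff.

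Genes that make, process and store histones were read from lists. Of 19 genes for histone mRNA transcription and 3′ end processing 8 were at least 1.5-fold higher in DivFB cells than in other cells and 0 lower, where 10.4% and 15.1% of all genes were. Slbp had 97.5 CPM in DivFB-S/G2M, 93.8 in DivFB-S, 37.2 in DivFB-G2M and 29.8 in other types. Npat, a coactivator of histone gene transcription, had 54.1, 61.5, 30.6 and 38.5 CPM in the same order, and its partner at histone locus bodies Casp8ap2 had 80.8, 121, 58.0 and 41.3 CPM. Slbp was close in DivFB-S/G2M and DivFB-S, and Npat and Casp8ap2 had more CPM in DivFB-S. Of 20 chaperone and assembly genes 12 were at least 1.5-fold higher in DivFB cells and 0 lower, against the same 10.4% and 15.1%. Nasp, whose product carries free histones, had 250 CPM in DivFB-S/G2M, 320 in DivFB-S, 139 in DivFB-G2M and 61.4 in other types. Chaf1a, a subunit of the factor that deposits H3 and H4 on new DNA, had 37.5 CPM in DivFB-S/G2M and 4.90 CPM in DivFB-G2M.

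The replication-independent histones, which have ordinary polyadenylated mRNAs, followed another order. Of 13 such genes over the minimum 9 were at least 1.5-fold higher in DivFB cells and 1 lower, where 10.4% and 15.1% of all genes were. In this list 0 were higher and 8 lower in DivFB-S than in DivFB-G2M, where 17.7% and 21.6% of all genes were. H2az1, the H2A.Z gene, had 2002 CPM in DivFB-S/G2M and 2037 CPM in DivFB-G2M, a ratio of 0.983 (0.946 to 1.02). H1f0, the linker histone of resting cells, had 275 and 207 CPM. The centromeric H3 gene Cenpa had 447 and 651 CPM. H2ax, the damage-signalling H2A gene, which is known to make both kinds of mRNA, came nearest to the replication-dependent genes, with 293 CPM in DivFB-S/G2M, 44.9 in DivFB-G2M, 20.2 in DivFB-S and 8.54 in other types.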

How the data were processed

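Per the labels' protocols, lungs were dissociated with enzymes, live cells were sorted by GFP and tdTomato, and 3′ v3.1 libraries were made from poly-A RNA. The submitters' processing notes name Cell Ranger 7.0.0 and the mm10 build. The authors deposited a matrix of raw UMI counts (31730 genes, 6142 cells) and a table of cells with library, cell type name, total UMIs and detected genes. The mitochondrial share of each cell was deposited as a percent (highest 19.3). Matrix sums equalled the deposited counts in 6142 cells. Cells had 5446 to 58130 UMIs, and the libraries held 34506226, 68692834 and 26586489 UMIs for GFP-high tdT-high, GFP-high tdT-negative and GFP-low tdT-negative. A sorted tdTomato-positive, GFP-negative population is not analysed here.

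UMIs were summed over cells and divided by total UMIs (CPM). Intervals are exact Poisson for sums, conditional binomial for ratios and Clopper-Pearson for shares. Calls used log2 of CPM plus 1, at 2-fold for members and 1.5-fold for lists, among genes with at least 100 UMIs. Thinning drew 5000 UMIs per cell (seed 57). TMM (edgeR 4.0.16) and size factors (DESeq2 1.42.0) served only as alternative scalings, and no test of either was used. The code was tested on simulated data. Members, lists and markers were chosen with earlier results of these data known. Members over the minimum and all H1f members were named; of each list a fixed set and the 2 highest and 2 lowest ratios could be named. Promoters came from RefSeq (GRCm38.p6) and transcripts from GENCODE M21. Python 3.11.15, numpy 2.4.6, scipy 1.17.1 and R 4.3.3 were used.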

Additional observations from a re-analysis of the deposited data

Results flagged for a closer look

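The difference between GFP-high tdT-high and GFP-high tdT-negative cells ran in opposite directions in different cell type names. Summed histone genes were higher in tdT-high cells within DivFB-S/G2M (16683 against 7097 CPM, ratio 2.35), MyoFB-Int (522 against 408 CPM, ratio 1.28) and MyoFB-IMR (437 against 362 CPM, ratio 1.21). Within MyoFB-Ter they were lower in tdT-high cells (452 against 499 CPM, ratio 0.905, 0.851 to 0.961). Within the same name H4c8 was higher in tdT-high cells (39.1 against 25 CPM). Whether the ratios differ between names was not tested, since each gate has 1 library, and the intervals cover counting error only.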

How the results depend on the processing

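No paired analysis was possible because each gate has 1 library and no result comes from a test. Of 78 alternative values of the summed ratios, 27 moved by less than their counting interval, 46 moved by more and 5 turned direction; of 174 alternative counts and shares 141 stayed within the bounds set. The values that turned were DivFB-S over DivFB-G2M within GFP-high tdT-negative (1.03), GFP-high tdT-negative over GFP-low without DivFB cells (0.858), within MatFB-Im,Cuff (0.463) and within AdvFB (0.755), and tdT-high over tdT-negative within MyoFB-Ter (0.905). The counting interval of the 1.03 included 1, so that value shows no difference rather than the opposite direction. DivFB-S/G2M over DivFB-G2M was 12.2 with TMM, 12.4 with DESeq2 factors, 10.4 as a mean over cells, 12.6 without the H1 genes, and 17.2 and 9.94 within the 2 GFP-high libraries. DivFB-S/G2M over DivFB-S was 14.9 thinned, 13.4 without H1f4, 13.7 without the H1 genes, and 24.1 and 9.68 within libraries. DivFB-S over DivFB-G2M was 0.725 thinned and 0.713 within tdT-high. DivFB over other types was 10.7 with DESeq2 factors, 8.47 as a mean over cells, 8.61 thinned, 9.26 between the 5th and 95th UMI percentiles, 12.8 without H1f4, 12.3 without the H1 genes, and 16, 9.80 and 6.56 within libraries. GFP-high tdT-negative over GFP-low was 1.13 with either scaling, 1.17 as a mean over cells, 1.16 thinned, 1.10 between those percentiles, 1.36 without H1f4 and 1.34 without the H1 genes. tdT-high over tdT-negative was 1.27 with either scaling, 1.32 between those percentiles, 1.29 without the H1 genes, 2.14 in DivFB cells, 1.31 without them, 1.21 in MyoFB-IMR and 1.28 in MyoFB-Int. Leaving out each library in turn gave 9.37 to 15.1 for DivFB-S/G2M over DivFB-G2M, 9.73 to 22.2 over DivFB-S, 0.681 to 0.963 for DivFB-S over DivFB-G2M and 9.20 to 14.3 for DivFB over other types. TMM and DESeq2 scaling shifted all genes by 0.11 and 0.14 (log2) in DivFB-S/G2M over DivFB-G2M and by -0.16 in GFP-high over GFP-low. Where counts of called members moved by over 1.5 times, a minimum of 500 UMIs left 21 members, of which 19 were higher over DivFB-G2M (5.72% of all genes) and 21 over DivFB-S (6.86%). In DivFB-S over DivFB-G2M a pseudocount of 5 CPM gave 6 higher (3.17% of all genes) and 5 lower (3.02%), and within tdT-high 5 were higher (17.4%) and 18 lower (18.6%). In GFP-high over GFP-low 5 were higher with a pseudocount of 5 CPM (4.42%), and 11 were lower within MatFB-Im,Cuff (6.84%). Allowing up to 3 mismatches in the stem-loop, chosen after seeing the data, gave 38 members in place of 28. Where a cause is not in the construction of the alternative, the cause was not tested. DivFB-S/G2M has 3 GFP-low cells, and values there rest on few UMIs.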

Other observations

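H2ac8 and H2bc8 are a divergent pair with overlapping promoter windows, yet they had 772 and 45.6 CPM in DivFB-S/G2M. Their annotated transcripts reach 151 and 155 bases past the stem-loop. Counts of 3′ tags have no length or capture correction, so the 2 values do not compare the amount of mRNA made.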
